A study of Homo sapiens with 4 samples.

Results

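The genes described here are 43 genes of the DNA damage response and of DNA repair, chosen by name from the main repair routes: damage checkpoints, homologous recombination, end joining, the Fanconi anaemia pathway, mismatch repair and excision repair. Of the 43, 38 had a probe set that the platform annotation assigns to 1 gene symbol, among 19775 such genes in the series. All 38 passed the signal filter and were tested among 11906 genes. BRCA2, FANCA, FANCD2 and RBBP8 had no probe set with a single symbol in the annotation used, PMS2 shared its probe sets with other symbols, and these 5 genes were not analysed here.

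The cells were Z138, an established line from a human mantle cell lymphoma, a B-cell cancer whose cells often express SOX11, a transcription factor. All groups carried stable lentiviral short hairpin RNAs, either scrambled (shControl.1 and shControl.2) or directed at SOX11 (shSOX11.1 and shSOX11.3). Total RNA of each of these 4 samples was hybridised to 1 Affymetrix U133 Plus 2.0 array, which gave 2 arrays per group. Each array holds a different hairpin construct and the labels name no separate cultures, so the p-values reflect no more than sample-to-sample spread, part or all of which may be technical, and the number of arrays limits the precision. Differences between constructs fall within that spread and cannot be told apart from the rest of it. The labels report no DNA-damaging treatment. Signals are written below as a pair for the controls (shControl.1, then shControl.2) against a pair for the knockdown (shSOX11.1, then shSOX11.3).

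SOX11 itself was lower with both hairpins, at 797 and 788 in controls against 335 and 339 (42.5% of control, log2 change -1.23, SE 0.15, limma adjusted p = 0.132 over all genes). Each array had a 2% trimmed mean signal of 150, and the values entered on that scale. The median signals still differed slightly, at 25.75 and 25.31 in controls against 24.3 and 23.9. The 3′/5′ signal ratio of beta-actin, which tracks RNA length and labelling, was 11.6 for either control and 7.29 and 5.31 for the knockdown. The same ratio of GAPDH was near 1 on every array, at 0.978 and 1.056 against 1.009 and 1.035. The part of these ratios in the results below was not tested. Of the B-cell and mantle cell lymphoma markers CD22, CD79A, CD79B, PAX5, EBF1, CCND1 and SOX11, which passed the filter, all 7 had a log2 change below 0 (median -0.68), 6 lay below both controls on both shSOX11 arrays (24.9% of all genes) and 4 were under an unadjusted limma p of 0.05 (57.1%, against 5.01% of all genes lower). SOX11, the target of the hairpins, is counted in each of these numbers, so they overstate the share among the other markers. Beside SOX11 the markers under that p were PAX5, CD79B and EBF1, at 55.2%, 62.2% and 65.7% of control. PAX5 was lower mainly with shSOX11.1, at 1845 and 1666 against 645.5 and 1450, so its shSOX11 arrays were 2.25-fold apart. The summed signal, most of it CCND1, was 15920 and 16630 against 13170 and 12820, and the part of these shifts in the repair genes' values was not tested. Of 8 T and NK cell markers 6 stayed under the filter (summed signal 280.0 and 294 against 224 and 253), as did 4 of 6 myeloid markers on the arrays (78.8 and 74.9 against 83.2 and 110) and 5 of 9 epithelial and stromal markers (1200 and 1195 against 1199 and 1012). The 2 myeloid markers that passed were CSF3R, at 8.51 and 7.67 against 30.6 and 30.3, and CSF1R, at 15.1 and 8.98 against 25.7 and 28.9. Both exceeded the filter's 24.83 on the shSOX11 arrays only, close to that threshold. Both were 1.5-fold or more higher on all 4 pairs of arrays, as 0.748% of all genes were, and the cause was not tested. The brightest markers of these 3 lists were COL1A1 and CD3G. COL1A1, most of the epithelial and stromal sum, was at 1063 and 1012 against 1047 and 881. CD3G was at 160 and 207 against 129 and 203. Among the dimmest, CD8A, GNLY and CD14 lay at or under 5.66 on every array.

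A cell answers DNA damage in layers. Sensor and checkpoint kinases halt the cell cycle, proteins that mark and process broken ends choose between homologous recombination and direct end joining, and excision and mismatch repair replace damaged or mispaired bases. In B cells parts of the same machinery also serve antibody gene diversification: the end-joining proteins seal V(D)J and switch breaks, and the uracil glycosylase UNG and the mismatch repair proteins act on deaminated cytosines. Many recombination and Fanconi genes are transcribed most strongly in cycling cells.

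Promoter sequences are shown for 4 genes: MRE11 and BRCA1, which had the smallest p-values among the 38, and BLM and PARP1, the ones whose windows hold a SOX core motif, the kind of sequence that SOX factors bind. The windows are the 250 bases before an annotated transcription start, from RefSeq on GRCh38.p14, written 5′ to 3′ on the strand of the gene. Capitals mark the SOX cores AACAAT and AACAAAG and the CCAAT box, each searched on both strands. The motifs were counted separately, and none of them contains another. The MRE11 window is chr11:94493845-94494094 on the minus strand, the BRCA1 window is chr17:43125365-43125614 on the minus strand (of 2 starts, the one with a match), the BLM window is chr15:90717096-90717345 on the plus strand and the PARP1 window is chr1:226408094-226408343 on the minus strand.
MRE11: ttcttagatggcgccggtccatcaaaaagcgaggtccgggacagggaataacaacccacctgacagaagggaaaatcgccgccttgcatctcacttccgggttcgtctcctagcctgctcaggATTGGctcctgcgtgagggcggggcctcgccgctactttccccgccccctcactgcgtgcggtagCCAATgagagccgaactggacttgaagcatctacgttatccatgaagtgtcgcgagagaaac
BRCA1: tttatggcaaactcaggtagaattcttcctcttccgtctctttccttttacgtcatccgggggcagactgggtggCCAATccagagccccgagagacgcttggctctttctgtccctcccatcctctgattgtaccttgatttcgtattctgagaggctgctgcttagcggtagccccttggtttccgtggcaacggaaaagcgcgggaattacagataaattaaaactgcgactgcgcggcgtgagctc
BLM: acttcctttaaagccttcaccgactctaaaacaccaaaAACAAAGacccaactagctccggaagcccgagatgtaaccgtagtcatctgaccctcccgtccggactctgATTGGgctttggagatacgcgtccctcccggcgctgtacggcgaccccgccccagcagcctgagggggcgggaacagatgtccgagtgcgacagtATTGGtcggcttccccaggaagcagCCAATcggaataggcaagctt
PARP1: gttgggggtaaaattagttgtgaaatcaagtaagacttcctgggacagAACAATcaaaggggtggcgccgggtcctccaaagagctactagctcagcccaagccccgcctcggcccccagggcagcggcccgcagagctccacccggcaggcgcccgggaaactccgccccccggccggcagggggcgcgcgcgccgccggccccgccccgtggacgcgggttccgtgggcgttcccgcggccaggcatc
Of the 38 genes 33 matched the promoter table. AACAAT was in a window of 1 of these (PARP1), and 10.9% of the 27305 genes in the table had it. AACAAAG was in a window of 1 (BLM), against 5.53% of the genes in the table. The CCAAT box was in windows of 20 (60.6%), against 37% of the table (10102 genes). The table was not limited to genes tested here, and a share over the tested genes was not counted. A match is a run of letters and does not show that a factor binds, and a window without one says nothing about the factor.

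Most of the 38 repair genes had similar signals with and without the SOX11 hairpins. In the 37 with signals above the threshold of 24.83 on all 4 arrays, the log2 change (shSOX11 minus shControl) ran from -0.45 for RAD51C to 0.53 for MRE11. XRCC3, whose knockdown signals lay below that threshold, has only a bound, given with its values. The median of the 38 was 0.04, where the median over all 11906 genes was -0.06. The change was above 0 in 22 of the 38 and below 0 in 16; over all genes 41.9% were above 0 and 58.1% below. The size of the change was under 0.25 on the log2 scale in 25 of the 38 (65.8%), against 56.7% of all genes. With each array centred on its median, which moved the median of all genes from -0.06 to 0.02, 26 were above 0 and 12 below. The median of the repair genes was 0.12 under that scaling, and unscaled it was -0.045 without shControl.2, -0.01 without shSOX11.1, 0.06 without shControl.1 and 0.04 without shSOX11.3.

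None of the 38 passed limma's adjusted p of 0.05, and neither did any of the 11906 genes (percent called 0; smallest adjusted p of a repair gene 0.559, largest 0.986). At an unadjusted limma p under 0.05 there were 2 repair genes (5.26%), MRE11 on the higher side and BRCA1 on the lower, against 8.42% of all genes, 3.42% higher and 5.01% lower. With 1 array left out the count of repair genes under that limit was 1 without shControl.1 (MRE11; 2.87% of all genes), 1 without shControl.2 (MSH3; 3.16%), 2 without shSOX11.3 (XRCC4 and XRCC5, 5.26%, against 15.5%) and 12 without shSOX11.1 (31.6%, against 25.6%), BRCA1 among the 12 and MRE11 not. Each of these fits left 1 array in a group, so its p-values hold no spread within that group, and the counts carry this limit. For RAD51C, H2AX and UNG the log2 change was -0.82, -0.81 and 1.30 without shSOX11.1. Without shSOX11.3 it was -0.07, 0.06 and -0.46, and the cause of the difference between these fits was not tested. With 2 arrays a group, the smallest two-sided p that an exact permutation of the labels allows is 0.333.

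The intervals say how large a change these arrays leave room for at the brightest probe set of each gene. Other probe sets are not covered by them, and some moved further, such as 1 of MSH6 (log2 change 0.97, SE 0.21) and 1 of H2AX (-0.69, SE 0.28). The 95% interval of the limma fit lay within a 2-fold change in either direction for 32 of the 38 genes, and within 1.5-fold for 20. The other 6, whose intervals reached beyond 2-fold, were XRCC3, UNG, MSH3, ERCC2, LIG4 and MRE11. At the brightest probe set, no repair gene had both knockdown signals 1.5-fold or more above, or below, both control signals. This separation was found for 2.65% of all genes, 0.748% higher and 1.9% lower. When shControl.1 or shSOX11.3 was left out 1 gene met this limit (5.2% and 7.95% of all genes), when shControl.2 was left out 0 did (6.14%), and when shSOX11.1 was left out 4 did (10.5%, against 10.8%). Both shSOX11 arrays lay on one side of both shControl arrays for 13 genes (34.2%), 6 higher and 7 lower, where all genes gave 41%, 16.1% higher and 24.9% lower. Leaving out an array makes such a separation easier, and the count was then 21 (shControl.1 left out; 56.8%, against 63.8% of all genes), 23 (shControl.2; 62.2% against 65.6%), 29 (shSOX11.1; 76.3% against 78.6%) or 27 (shSOX11.3; 71.1% against 74.7%).

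**Figure D1:**
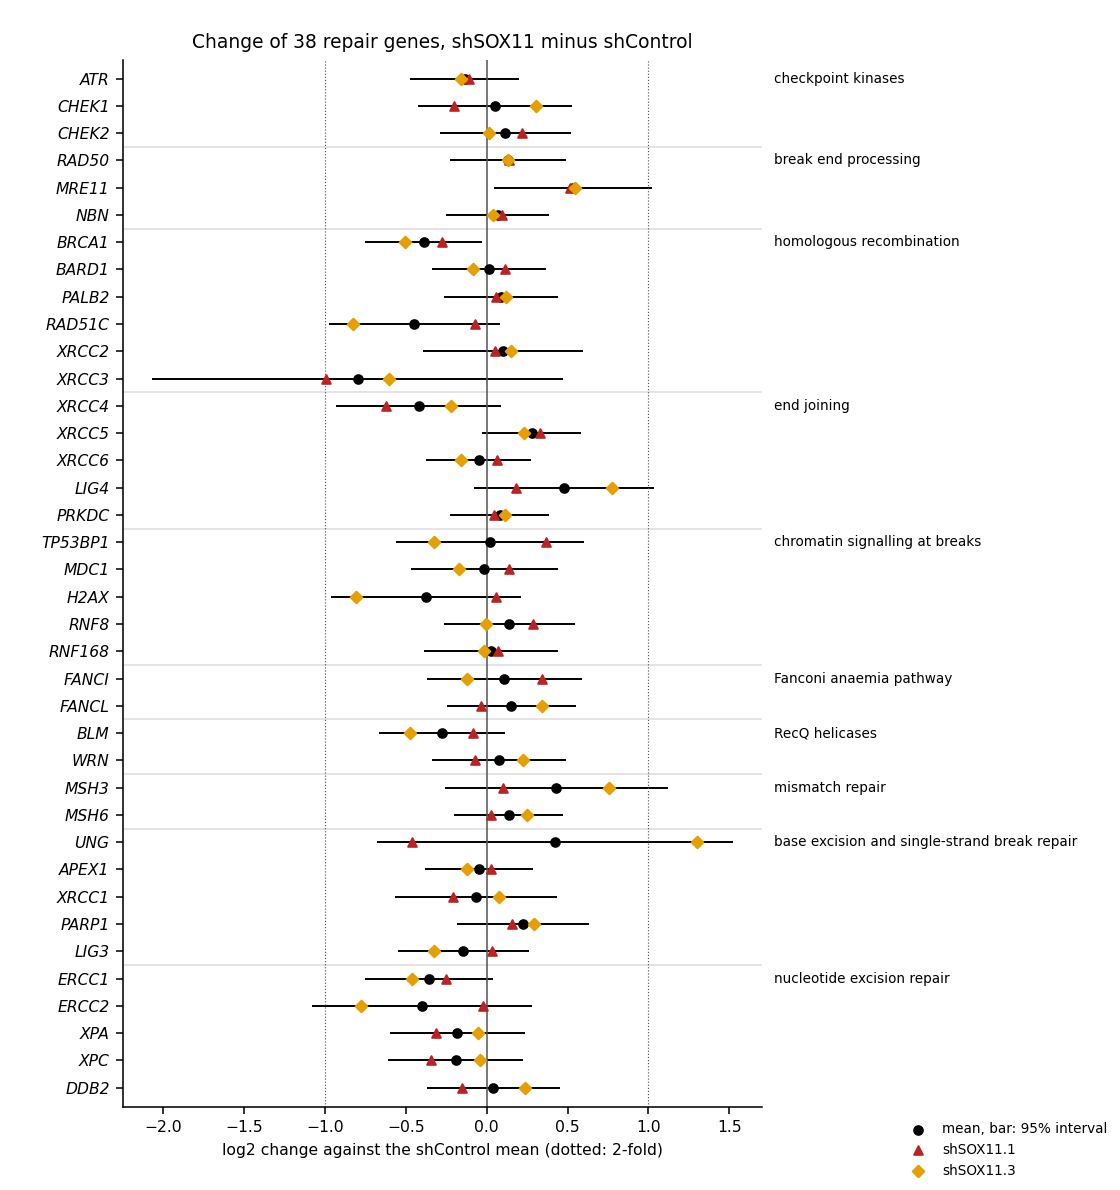
Log2 change of each of the 38 repair genes against the shControl mean (horizontal axis), grouped by role; black points are the mean of both hairpins with the 95% interval of the limma fit, coloured points the single shSOX11 arrays, dotted lines a 2-fold change. The intervals of MRE11 and BRCA1 exclude 0, XRCC3 is drawn from knockdown signals below the threshold, and the shSOX11 arrays lie farthest apart for UNG.

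The checkpoint kinases were nearly level at their brightest probe sets. ATR, the kinase that answers stalled replication forks, had signals of 1193 and 1059 in controls against 1040 and 1006, so both shSOX11 arrays were just below both controls (log2 change -0.14, SE 0.15, 95% interval -0.47 to 0.20). Its second probe set went the other way, at 304 and 298 against 344 and 349. CHEK1, the kinase that ATR activates, lay at 359 and 314 against 291 and 415, with the hairpins on opposite sides of the controls (0.05, SE 0.21). The 4 CHEK1 probe sets disagreed, 2 higher and 2 lower, from -0.53 to 0.33. CHEK2, which relays breaks, was at 248 and 265 against 299 and 259 (0.12, SE 0.18). The limma adjusted p of these 3 lay between 0.793 and 0.953.

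MRE11, RAD50 and NBN form the complex that senses and trims broken DNA ends. At the brightest probe set, each of the 3 subunits had higher signals on both shSOX11 arrays than on both controls. Of all genes 16.1% were separated in this direction. MRE11, the nuclease, had signals of 142 and 109 in controls against 179 and 182. It was 1.45-fold higher (log2 means 6.96 ± 0.27 and 7.50 ± 0.02, SD, n = 2 each; change 0.53, SE 0.21, limma adjusted p = 0.559). Its second probe set above the threshold gave 47.2 and 40.6 against 56.9 and 81.0, again without overlap. RAD50, the ATPase that tethers ends, was at 397 and 399 against 438 and 435 (0.13, SE 0.16), a small shift between close pairs. Its other probe sets were lower, at -0.49 and -0.07, the first without overlap (254 and 207 against 197 and 136). With the mean of its probe sets RAD50 turned to -0.14. NBN, which recruits checkpoint signalling, was at 1339 and 1355 against 1441 and 1382 (0.07, SE 0.14). Its 4 probe sets above the threshold were all higher in the mean, by 0.07 to 0.48, 2 of them without overlap.

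Of the 6 homologous recombination genes tested, 3 had a log2 change above 0 and 3 below. BRCA1, which promotes end resection and loading of the recombinase, had signals of 1327 and 1163 in controls against 1027 and 875. Both shSOX11 arrays were below both controls, 1.31-fold lower in the mean (log2 means 10.28 ± 0.13 and 9.89 ± 0.16, SD, n = 2 each; change -0.39, SE 0.16, limma adjusted p = 0.564). A second, dimmer BRCA1 probe set, of the kind marked for possible cross-hybridization, was at 110 and 119 against 97.9 and 127 (-0.04), so the groups overlapped there. With median centring, with averaged probe sets or with limma run without its trend, BRCA1 was no longer under an unadjusted p of 0.05. BARD1, its partner in a ubiquitin ligase, lay at 698 and 670 against 740 and 646 (0.01, SE 0.15) and so did not share the shift of BRCA1 in these values; the difference between both genes was not tested. PALB2, which bridges to the recombinase loader, was at 564 and 521 against 564 and 588 (0.09, SE 0.15).

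RAD51C, XRCC2 and XRCC3 encode paralogs of the recombinase. RAD51C was at 1310 and 1262 against 1223 and 727, so that almost all of its difference came from 1 hairpin (the log2 change was -0.07 with shSOX11.1 and -0.82 with shSOX11.3). A second RAD51C probe set showed the same order, at 627 and 668 against 626 and 481. XRCC3 was at 31.9 and 33.2 against 16.4 and 21.4, under the signal threshold of 24.83 in both knockdown samples, which limits the statement to at least 1.31-fold lower. XRCC2 overlapped between the groups (178 and 133 against 160 and 171).

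**Figure D2:**
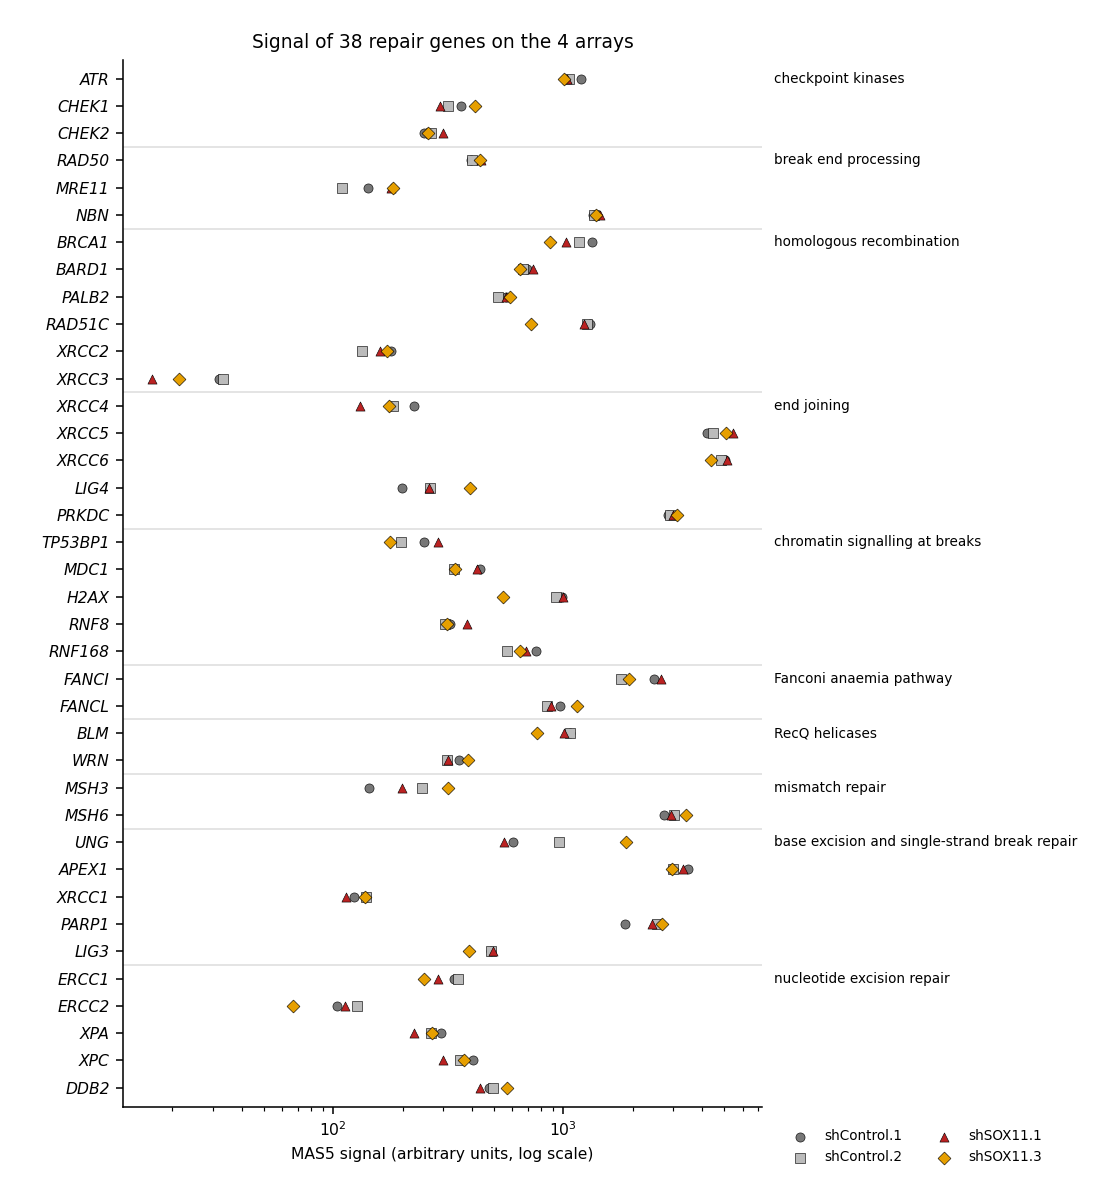
Deposited MAS5 signal (log axis, arbitrary units) of each of the 38 repair genes on the 4 arrays, grouped by role; grey symbols are shControl arrays and coloured symbols shSOX11 arrays. The symbols of a gene lie close together for most genes, and UNG spans from 554 to 1877. Signals of different genes come from different probes and are not compared.

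Among the end-joining genes, XRCC5 and XRCC6 form the Ku ring that grips broken ends, and the difference between their changes was not tested. XRCC5, the larger Ku subunit, had signals of 4196 and 4463 in controls against 5430 and 5078. It was 1.21-fold higher (log2 means 12.08 ± 0.06 and 12.36 ± 0.07, SD, n = 2 each; change 0.28, SE 0.13, limma adjusted p = 0.598), and all 3 of its probe sets above the threshold were higher, by 0.18 to 0.28. XRCC6, the smaller Ku subunit, was at 5014 and 4814 against 5124 and 4393 (-0.05, SE 0.14), with a 95% interval of -0.37 to 0.27 that overlaps the interval of XRCC5 (-0.03 to 0.58). PRKDC, the catalytic subunit that binds Ku, was at 2859 and 2907 against 2978 and 3120 (0.08, SE 0.13). A second PRKDC probe set stood further apart, at 550 and 574 against 753 and 851 (0.51, SE 0.16; limma adjusted p = 0.517 over all probe sets).

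LIG4, the ligase that seals the joint, was at 199 and 264 against 260 and 392, with shSOX11.1 below 1 of the controls (0.48, SE 0.24). Its second probe set was also higher in the mean, at 49.5 and 38.5 against 51.2 and 88.3. XRCC4, the scaffold of that ligase, was at 225 and 182 against 131 and 174 (-0.42, SE 0.22) at its brightest probe set, which ends in _x_at, the mark for possible cross-hybridization. Another XRCC4 probe set gave the opposite, at 121 and 114 against 144 and 193 (0.50), so no direction can be given for XRCC4.

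The genes of proteins that mark chromatin around breaks overlapped between the groups at the brightest probe set. H2AX, the histone variant phosphorylated beside breaks, was at 990 and 930 against 998 and 548 (-0.38, SE 0.26). Its 2 dimmer probe sets above the threshold were lower with both hairpins. The first of them was 1.61-fold lower, at 52.4 and 52.2 in the knockdown (-0.69, SE 0.28; limma adjusted p = 0.576 over all probe sets), and the other lay at 73.1 and 42.2 against 41.9 and 40.6. TP53BP1, which restrains end resection, was at 248 and 198 against 285 and 176 (0.02, SE 0.26). Its second probe set above the threshold was lower with both hairpins, at 175 and 177 against 152 and 133 (-0.31, SE 0.20). MDC1, the adaptor that reads phosphorylated H2AX, lay at 435 and 335 against 421 and 339. A dimmer MDC1 probe set overlapped too, at 77.7 and 121 against 88.0 and 60.1 (-0.415). The ubiquitin ligases RNF8 (321 and 305 against 381 and 311) and RNF168 (760 and 566 against 690 and 649) had log2 changes of 0.14 and 0.03.

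In the Fanconi anaemia pathway, which unhooks crosslinks between strands, 2 members were measured. FANCI, a target of the pathway's ubiquitin ligase, was at 2462 and 1787 against 2662 and 1924, 1.38-fold apart within either group and 1.08-fold between the groups. Its other probe sets lay at 0.34 and -0.29. FANCL, the ligase subunit, was at 965 and 847 against 883 and 1144 (0.15, SE 0.17). The helicase BLM, which dissolves recombination intermediates, was at 1065 and 1063 against 1004 and 767 (-0.28, SE 0.17), below the controls with both hairpins and mainly so with shSOX11.3. The related helicase WRN overlapped, at 350.2 and 311 against 314 and 386.

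Mismatch repair was represented by the partners that pair with a common subunit to read mispairs. MSH6, the reader of single mismatches, was at 2726 and 3035 against 2927 and 3419 at its brightest probe set (0.14, SE 0.15). Another MSH6 probe set had the smallest limma p among the 79 repair probe sets, at 319 and 306 against 507 and 736. It was 1.96-fold higher (0.97, SE 0.21; limma adjusted p = 0.397 over 28202 probe sets), against 1.10-fold at the brightest, and which of them reports the transcript level was not tested. The third MSH6 probe set above the threshold lay at 0.05. MSH3, the reader of larger loops, was at 143 and 243 against 200 and 315 (0.43, SE 0.30), with 1.70-fold between the controls themselves.

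UNG, the glycosylase that removes uracil from DNA, differed most between the hairpins. It was at 606 and 957 in controls, at 554 with shSOX11.1 and at 1877 with shSOX11.3. The shSOX11 arrays were thus 3.39-fold apart and lay on either side of both controls, which were themselves 1.58-fold apart (log2 change 0.42, SE 0.48, 95% interval -0.68 to 1.52). UNG was the 1 gene of the 38 whose shSOX11 arrays were 2-fold or more apart, as 8.31% of all genes were (5.22% had shControl arrays that far apart, none of the 38 among them), and it has a single probe set with its symbol. The other base excision genes stayed closer. APEX1, the endonuclease that cuts at the abasic site, was at 3489 and 2995 against 3297 and 2966, and XRCC1, the scaffold of single-strand break repair, at 123 and 139 in controls, 113 with shSOX11.1 and inside the control pair with shSOX11.3. PARP1, the sensor of strand breaks, was at 1850 and 2562 against 2422 and 2670 (0.22, SE 0.18), inside the spread of the controls at shSOX11.1. LIG3, the ligase partner of XRCC1, was at 485 and 485 against 497 and 387, with 4 of its 6 probe sets higher and 2 lower.

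Nucleotide excision repair removes bulky lesions such as ultraviolet photoproducts. Of its 5 genes here, 4 had a log2 change below 0, as 58.1% of all genes had. ERCC1, part of the nuclease that cuts 5′ of the lesion, was at 333 and 349 against 287 and 248, below both controls with both hairpins (-0.36, SE 0.17; limma adjusted p = 0.598). All 3 ERCC1 probe sets were lower, by -0.36, -0.06 and -0.21. ERCC2, a helicase of the repair and transcription factor TFIIH, was at 104 and 127 against 113 and 67.0. XPA, which verifies the lesion, was at 293 and 265 against 225 and 268, and XPC, which finds it, at 405 and 355 against 299 and 368. DDB2, the ultraviolet damage sensor and a p53 target, was at 473 and 493 against 434 and 570 (0.04, SE 0.18).

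**Figure D3:**
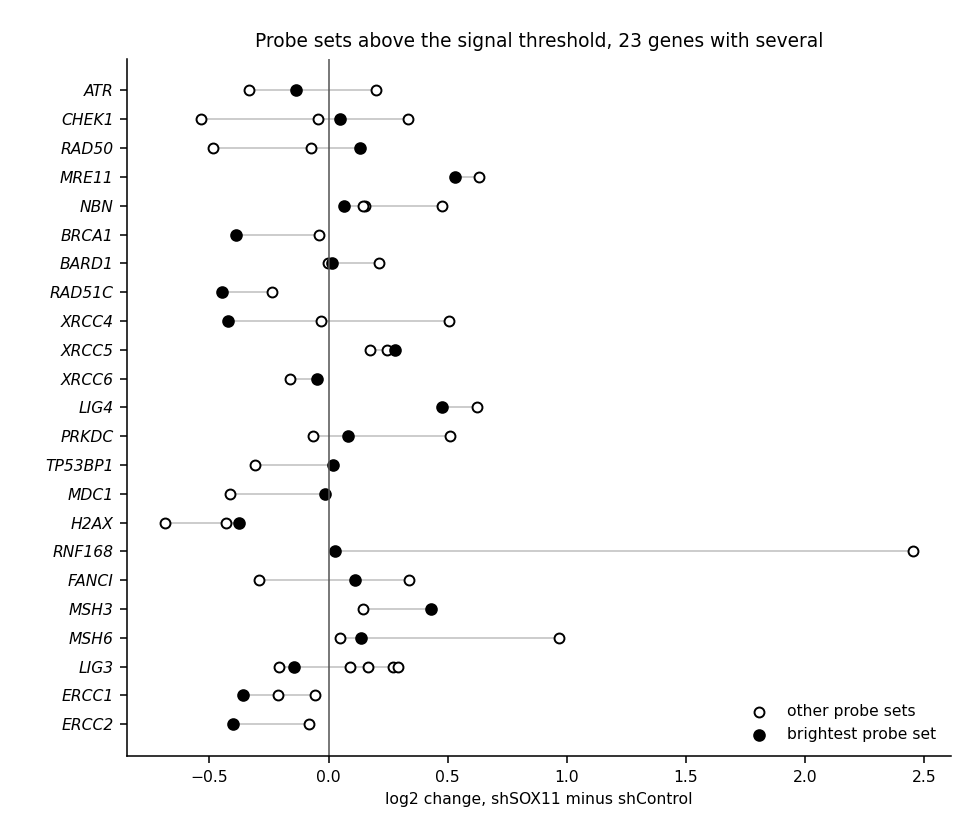
Log2 change (shSOX11 minus shControl) of every probe set above the signal threshold, for the 23 repair genes with more than 1; filled points are the brightest probe set of a gene, open points the others. For 14 genes all points lie on one side of 0 and for 9 on both sides, and the open RNF168 point at 2.45 rests on a control signal of 0.64 on shControl.1.

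The probe sets of one gene did not always agree. Of the 23 repair genes with more than 1 probe set above the threshold, 7 had all of them higher, 7 had all lower and 9 were mixed. The genes with all probe sets higher were MRE11, NBN, XRCC5, LIG4, RNF168, MSH3 and MSH6, and those with all lower were BRCA1, RAD51C, XRCC6, MDC1, H2AX, ERCC1 and ERCC2. The median distance between the highest and the lowest probe set of a gene was 0.35 on the log2 scale, larger than the change of most genes. Tested one by one over 28202 probe sets, 5 of 79 repair probe sets were under an unadjusted limma p of 0.05 (6.33%, against 8.26% of all probe sets), 3 higher and 2 lower. None passed the adjusted p, which 1 probe set of the whole array did.

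Around these genes, 105 further repair genes were listed by role and 98 of them were tested. Their median log2 change was -0.06, with 39 above 0 and 59 below, and 0 passed limma's adjusted p. At an unadjusted limma p under 0.05 there were 5 (5.10%, against 8.42% of all genes), and with 1 array left out there were 1 without shControl.1 (2.87% of all genes), 1 without shControl.2 (3.16%), 26 without shSOX11.1 (26.5%, against 25.6%) and 9 without shSOX11.3 (9.18%, against 15.5%). The higher ones were HLTF, which remodels stalled forks (962 and 1154 against 1433 and 1566), POLI, a translesion polymerase (82.3 and 72.7 against 113 and 162), and RIF1, the partner of TP53BP1 at breaks (1064 and 1119 against 1317 and 1564). The lower ones were DCLRE1C, the nuclease Artemis that opens V(D)J hairpins (622 and 655 against 454 and 514), and MAD2L2, which acts in end protection and translesion synthesis (785 and 715 against 627 and 496). Their limma adjusted p lay at 0.462 or above. Both shSOX11 arrays lay on one side of both controls for 37 of the 98 (37.8%), against 41% of all genes.

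By role, the share of further genes with a log2 change above 0 is read against 41.9% of all genes. It was 3 of 11 for checkpoints, 3 of 5 for break end processing, 4 of 11 for recombination, 0 of 3 for end joining and 4 of 10 for chromatin signalling. For the other routes it was 2 of 10 for Fanconi genes, 3 of 6 for helicase partners, 1 of 4 for mismatch repair, 7 of 14 for base excision, 8 of 13 for nucleotide excision and 4 of 11 for translesion synthesis. Because many repair genes follow the cell cycle, 22 proliferation markers were read beside them. Their median log2 change was -0.06, with 9 above 0 and 13 below, and their summed signal was 53540 and 54290 in controls against 54070 and 52330. At an unadjusted limma p under 0.05 there were 4 of the 22 (18.2%, against 8.42% of all genes). Higher were the division marker MKI67 (970 and 962 against 1571 and 1574), TOP2A, the topoisomerase of dividing cells (2567 and 2910 against 3512 and 4302), and the cyclin CCNE2 (746 and 835 against 1013 and 1408), and lower was the replication factor GINS2 (1265 and 1230 against 1036 and 944). Their limma adjusted p lay between 0.309 and 0.585, and their part in the repair genes' values was not tested.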

How the data were processed

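Total RNA of 4 Z138 samples was measured on 1-colour arrays, and groups came from the sample titles. The authors deposited a linear-scale intensity for each probe set; the submitters' processing notes name MAS5 and Affymetrix Expression Console, and further steps were not given in the sources used here. MAS5 makes dim signals noisy. Of 54675 probe sets 41091 had 1 symbol, 1801 several and 11721 none in the platform annotation, and 62 were array controls.

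Signals were taken to log2 without pseudocount. Each gene was read at its brightest probe set by mean log2 signal and kept where that signal exceeded 24.83 (the median over the whole table) on 2 or more arrays. The test was limma 3.58.1 in R 4.3.3 (lmFit, eBayes with an intensity trend, two-sided, Benjamini-Hochberg adjustment at 0.05 over 11906 genes), with 2 residual and, after moderation, 8.38 degrees of freedom. Members and lists were chosen with earlier results of these data known. Named in full were members at an unadjusted p under 0.05, 1.5-fold apart on all 4 pairs or with shSOX11 arrays 2-fold apart, and ATR, CHEK1, BRCA1, PARP1 and DDB2, while all other members are given by their signals; of the other repair genes, up to 3 per direction at an unadjusted p under 0.05 whose groups did not overlap. Proliferation and B-cell markers named with values were those under an unadjusted p of 0.05, a rule chosen after their values were seen. Alternatives were median centring, quantile normalization, no filter or one at the 65th or 35th percentile, a pseudocount of 32, limma robust or without the trend, averaged probe sets, no _x_at probe sets, an adjusted p of 0.10, a 2-fold limit and each array left out.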

Additional observations from a re-analysis of the deposited data

How the results depend on the processing

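No repair gene passed limma's adjusted p of 0.05 under any setting that kept all 4 arrays, and outside the fits with an array left out 28 of the 38 kept the sign of their log2 change in every setting run. The signs that turned all belonged to small changes or to genes whose probe sets disagree. With quantile normalization BARD1 was at -0.002 and XRCC6 at 0.039. With median centring APEX1, MDC1, XRCC1 and XRCC6 were at 0.035, 0.069, 0.017 and 0.033, and the members' median was 0.12. With probe sets averaged, CHEK1, LIG3, RAD50, TP53BP1 and XRCC4 were at -0.049, 0.077, -0.14, -0.14 and 0.017, and without _x_at probe sets XRCC4 was at 0.50. Limma without the trend gave 1 repair gene (XRCC3) and 2 other repair genes at an unadjusted p under 0.05. XRCC3 could not be tested with the filter at the 65th percentile or without either shControl array, where 37 repair genes were tested, nor XRCC2 without _x_at probe sets.

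Fits without 1 array borrow the spread of the remaining pair for the single array. The count past limma's adjusted p then ran from 0 to 835 over all genes and from 0 to 3 over the repair genes. At an unadjusted p under 0.05 there were 1 to 12 repair genes and 1 to 26 other repair genes. The members' median ran from -0.045 to 0.060, the members 1.5-fold apart from 0 to 4 and those not overlapping from 21 to 29. SOX11 ran from -1.24 to -1.23 and passed the adjusted p without either shSOX11 array. The sign of 18 repair genes turned in at least 1 of these fits, with ranges of APEX1 from -0.16 to 0.062, BARD1 from -0.084 to 0.11, CHEK1 from -0.20 to 0.30, DDB2 from -0.15 to 0.24, FANCI from -0.12 to 0.34, FANCL from -0.034 to 0.34, H2AX from -0.81 to 0.057, LIG3 from -0.33 to 0.035, MDC1 from -0.20 to 0.17. The others ran for PARP1 from -0.011 to 0.46, RNF168 from -0.18 to 0.24, RNF8 from -0.005 to 0.28, TP53BP1 from -0.33 to 0.37, UNG from -0.46 to 1.30, WRN from -0.070 to 0.22, XRCC1 from -0.21 to 0.076, XRCC2 from -0.11 to 0.31 and XRCC6 from -0.16 to 0.061. No paired analysis was possible because the groups share fewer than 2 construct numbers, and these name constructs. Groups of 2 arrays limit every value, and signals near the threshold, such as that of XRCC3, give bounds only.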
